A study of Mus musculus with 17 samples.

Results

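Genes of extracellular purine signalling were followed in mouse fetal liver cells: Nt5e, Entpd1, Ada, Adora2a, Adora2b, P2rx1, P2rx4, P2ry1, P2ry12 and P2ry14. The 10 genes, out of 46880 listed in all 3 count tables, were chosen by name after Nt5e had been seen to be almost lost in the libraries labelled miR-125b, and because purine receptors act in platelets. Values of the miR-125b libraries against their control therefore chose the genes, and in that contrast the 10 genes are described by their values and fold changes; how many of them were called there is given only beside the share over all genes, and nothing is read from it.

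Cells release ATP and ADP when they are stimulated or damaged. The enzyme CD39 (Entpd1) cuts ATP and ADP to AMP, CD73 (Nt5e) turns AMP into adenosine, and adenosine deaminase (Ada) turns adenosine into inosine. Adenosine acts on receptors such as those encoded by Adora2a and Adora2b, which raise cyclic AMP and restrain platelet activation, whereas ATP and ADP act on P2X channels and P2Y receptors, several of which activate platelets.

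All 17 libraries came from liver cells of embryos at day E12.5 to E13.5, from mice whose allele at the Gt(ROSA)26Sor locus carries Cas9 and EGFP under the CAG promoter. In 14 of them the cells carried a guide against Gata1 (sgGata1) and are named Gata1s, after the short form of this megakaryocyte and erythroid transcription factor. Of these, 3 LUC and 3 Arid3a libraries carried a second transgene of that name and had doxycycline at 1 μg/mL for 48 h. The other 8 had the same dose for 10 days and carried a control hairpin (sh-ctrl, 3 libraries), a hairpin against the transcription factor Arid3a (shArid3a, 2 libraries) or miR-125b (3 libraries). The remaining 3 libraries, labelled WT, carried sgLuc and shLuc and had no doxycycline. The promoters of the second transgenes, and whether the libraries of a group were separate cultures or embryos, are not given in the sources used here, so p-values measure only the spread between these libraries, which may be technical.

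Total counts per library were 31339238 to 38678649 in the LUC and Arid3a table, 31992089 to 40859301 in the hairpin and miR-125b table and 16362439 to 19212193 in the WT table. Levels are given as CPM, counts scaled to the size of each library within each table. Arid3a itself, the check of the labels, stood at 64.0 to 70.2 CPM in LUC and 58.3 to 80.1 CPM in the libraries labelled Arid3a, so the label was not borne out in the gene's count; it stood at 45.2 to 57.2 CPM in sh-ctrl, 18.9 to 20.4 CPM in shArid3a and 7.14 to 10.0 CPM in miR-125b. Megakaryocyte and platelet markers summed to 3018 to 5197 CPM in the 14 Gata1s libraries and 1553 to 1763 CPM in WT, with the integrin gene Itga2b present in all groups. Neutrophil and monocyte precursor markers summed to 6319 to 7431 CPM in WT and at most 150.2 CPM in the Gata1s libraries. The WT libraries stood apart in this way, and genotype, doxycycline, second transgene and table cannot be told apart between them and the rest. In bulk RNA, fewer cells of a type and less RNA per cell cannot be told apart either.

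The sequences shown beside the miR-125b comparison are the miRNA and the matches to its seed. The mature 5p strand of miR-125b is shown from RefSeq with its seed, bases 2 to 8, in capitals; the labels do not say which precursor or arm was used, and the mouse genome (GRCm38.p6) holds this strand at 2 loci, chr9:41581940-41581961 and chr16:77646279-77646300, both on the plus strand.
mmu-miR-125b-5p: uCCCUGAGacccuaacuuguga

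Annotated 3′ UTRs (GENCODE, GRCm38) of the 10 genes were searched on the sense strand for the letters that pair with this seed. An 8mer is CTCAGGGA, a 7mer-m8 is CTCAGGG, a 7mer-A1 is TCAGGGA and a 6mer is TCAGGG, each shorter form being contained in the longer ones. A match of at least 7 letters was found in 3 of the 10 genes, and each is printed with its matching letters in capitals and the flanking bases in lower case.
Adora2a 8mer: accgccgaggcCTCAGGGAgctgctgacct
Nt5e 7mer-A1: gcaaaaggcagTCAGGGAcaggcaggaaa
P2rx4 7mer-m8: ctccacaaataCTCAGGGttgcccgagca

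All 3 matches lie on the plus strand in the 3′ UTR. Distances from the stop codon are counted to the first letter of the 6mer within each match. The Adora2a match is at chr10:75334306-75334313, 371 nt after the stop codon, and the same UTR holds a 6mer. The Nt5e match is at chr9:88371156-88371162, 839 nt after the stop codon, and the P2rx4 match at chr5:122728435-122728441, 123 nt after it. Entpd1 has a 6mer only, and in Ada, Adora2b, P2rx1, P2ry1, P2ry12 and P2ry14 none of these letters was found. Of 21045 genes with an annotated 3′ UTR, 4.9% hold the 8mer, 20.5% a match of at least 7 letters and 32.6% the 6mer or longer. A match is a description of the letters and not evidence that the site is used.

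**Figure D1:**
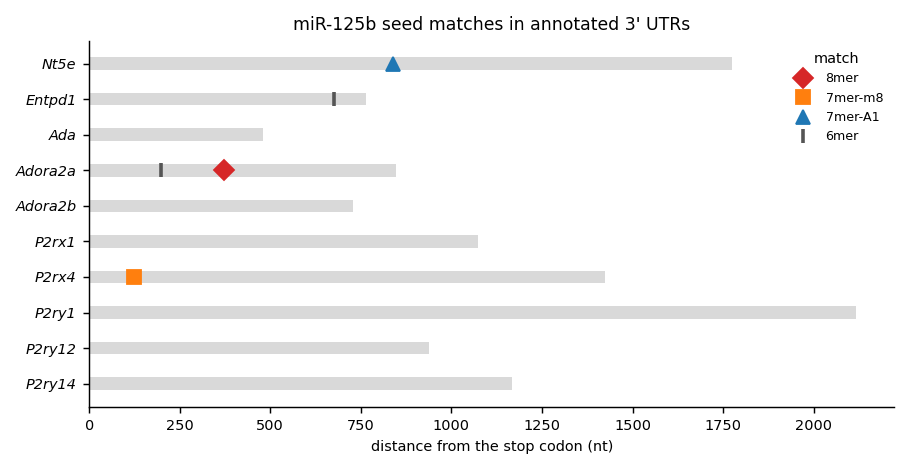
Seed matches of miR-125b in annotated 3′ UTRs of the 10 genes. Grey bars give the UTR length in nt from the stop codon and symbols the start of the 6mer within each match. Adora2a, Nt5e and P2rx4 hold a match of at least 7 letters, and Entpd1 only a 6mer; for genes with a match the bar is the UTR that holds it, for the rest the longest annotated one.

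Nt5e encodes CD73, the surface enzyme that makes adenosine from AMP (chr9:88327197-88372092, plus strand, GRCm38, with 9 exon blocks). Its level in the 3 sh-ctrl libraries was 20.7, 13.2 and 17.5 CPM. In the 3 miR-125b libraries it was 1.47, 0.463 and 0.733 CPM, from 46, 17 and 29 counts. The groups were far apart, with a ratio of means of 0.0518 and a log2 fold change of -4.28 ± 0.41 (SE); this is the value that chose the genes.

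The 2 shArid3a libraries had Nt5e at 7.34 and 9.88 CPM, below all 3 sh-ctrl libraries and above all 3 miR-125b libraries. Against sh-ctrl, whose libraries are shared with the choosing contrast, the log2 fold change was -0.99 ± 0.41 (SE) and did not pass the test (edgeR quasi-likelihood, Benjamini-Hochberg adjusted p = 0.164). Set directly against shArid3a, the miR-125b libraries, which are also part of the choosing contrast, gave a log2 fold change of -3.29 ± 0.42 (SE) with an adjusted p of 0.0085 by the same test, and Nt5e was lower in all 3 miR-125b libraries than in either shArid3a library. Because the low Nt5e values of these same miR-125b libraries chose the genes, this p is not independent support.

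In the 48 h experiment, which shares no library with the others, Nt5e was 24.7, 25.4 and 23.1 CPM in LUC and 23.1, 23.5 and 34.7 CPM in the libraries labelled Arid3a. These ranges overlap, and the log2 fold change of 0.15 ± 0.17 (SE) did not pass the test (edgeR adjusted p = 0.641). Without the third Arid3a library its sign turned, to -0.071. The 3 WT libraries had 35.9, 40.8 and 34.9 CPM, above every Gata1s library, although the lowest WT value lay close to the highest Arid3a value. Scaled by library totals alone, they overlapped, at 34.9 CPM in the lowest WT and 35.4 CPM in the highest Arid3a library.

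**Figure D2:**
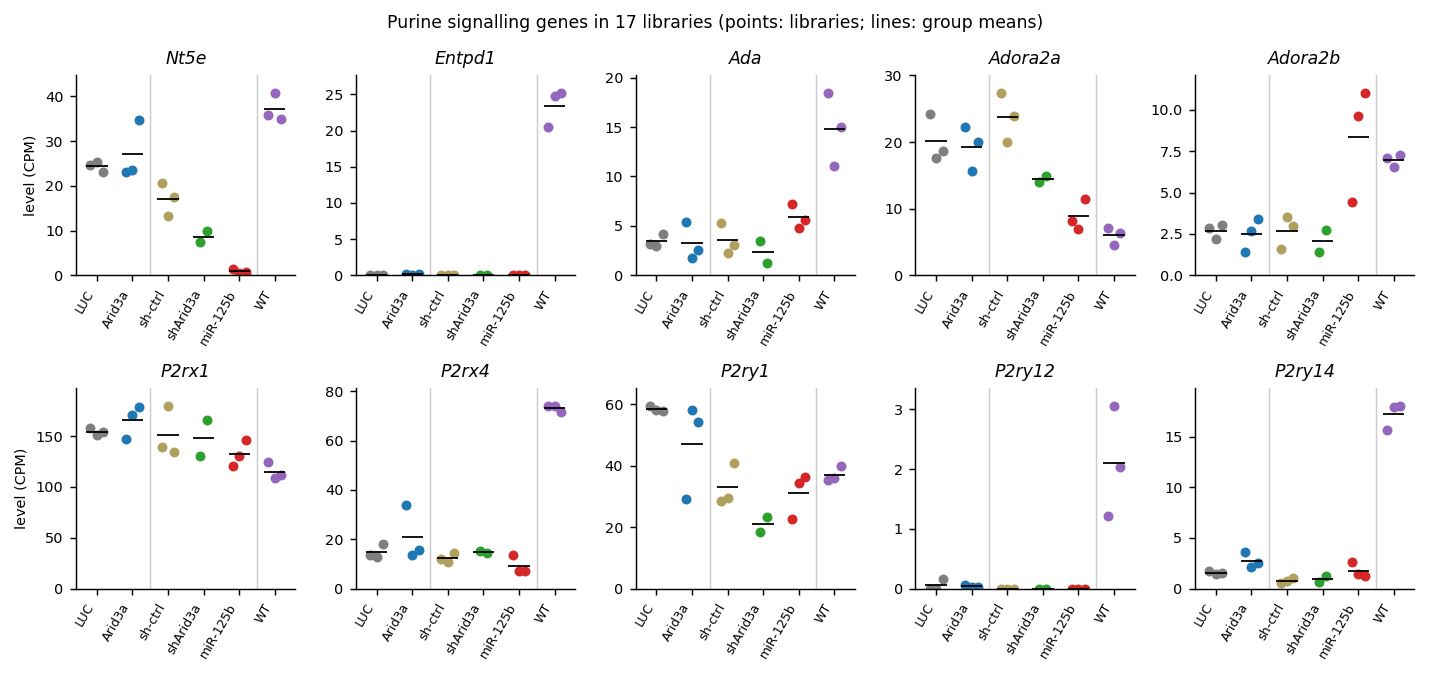
Levels of the 10 genes in CPM (vertical axes start at 0 and differ between panels) by group; each point is a library and each line a group mean. Nt5e sits between 0.463 and 1.47 CPM in miR-125b and above 7 CPM in all other groups, and Entpd1 and P2ry12 are near 0 outside WT.

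Entpd1 encodes CD39, the enzyme upstream of CD73 (chr19:40612366-40741602, plus strand). It was close to absent from all Gata1s libraries, with 25 counts over the 14 of them and a highest level of 0.195 CPM. The WT libraries had 20.4, 24.7 and 25.2 CPM. At this depth the gene did not pass the filter on low counts in any comparison, so no test was made, and its 7, 1 and 7 counts in the libraries labelled Arid3a set beside 0, 0 and 1 in LUC are given as values only. Macrophage markers, among them the receptor gene Csf1r, summed to 348 to 427 CPM in WT and at most 7.77 CPM in the Gata1s libraries, beside this difference; their part in it was not tested.

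Ada encodes the enzyme that removes adenosine (chr2:163726584-163750239, minus strand). Its levels were low and variable in Gata1s libraries, from 1.21 to 7.26 CPM, and 11.1 to 18.5 CPM in WT. In sh-ctrl they were 5.31, 2.26 and 3.05 CPM and in miR-125b 7.26, 4.82 and 5.61 CPM, so the groups overlap, with a log2 fold change of 0.74 ± 0.44 (SE). Against the shArid3a values of 3.48 and 1.21 CPM the miR-125b libraries were all higher, with a log2 fold change of 1.33 ± 0.51 (SE) that did not pass the test (edgeR adjusted p = 0.263). shArid3a overlapped sh-ctrl (-0.59 ± 0.50 SE, edgeR adjusted p = 0.479). In the 48 h experiment Ada was 3.20, 2.92 and 4.19 CPM in LUC and 5.35, 1.76 and 2.60 CPM in the libraries labelled Arid3a, a wider spread around a similar mean (-0.08 ± 0.42 SE, edgeR adjusted p = 0.925). The library numbered 1 had the highest Ada level in 4 of the 5 Gata1s groups.

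The 2 adenosine receptors among the 10 genes moved in opposite directions in the miR-125b libraries. Adora2a encodes the high-affinity receptor of platelets and leukocytes (chr10:75316877-75334784, plus strand). It stood at 27.4, 20.0 and 23.9 CPM in sh-ctrl and 8.16, 7.03 and 11.4 CPM in miR-125b, without overlap, with a log2 fold change of -1.42 ± 0.22 (SE). Adora2b encodes the low-affinity adenosine receptor (chr11:62248984-62266453, plus strand). It stood at 1.58, 3.52 and 2.98 CPM in sh-ctrl and 4.40, 9.64 and 11.02 CPM in miR-125b, again without overlap, with a log2 fold change of 1.63 ± 0.44 (SE). The first of the miR-125b libraries had the lowest Adora2b level of the 3, and the library numbered 1 had the lowest in 4 of the 5 Gata1s groups. That miR-125b library had summed mast cell and basophil markers of 387 CPM against 35.4 and 30.7 CPM in the other 2. The part of these markers in the difference between these libraries was not tested. Some markers of blood cell types were also called between miR-125b and sh-ctrl (edgeR, adjusted p under 0.05), beside 24.4% of 14004 genes. Of 14 megakaryocyte and platelet markers tested, 7 fell and 1 rose, and of 8 erythroid markers tested 3 fell. Of 5 neutrophil and monocyte precursor markers and 9 mast cell and basophil markers tested, 2 rose in each. None of these shares was tested against that background, so no shift in cell types is read from them. Mpo, the myeloperoxidase gene of neutrophil precursors, was 0.198 ± 0.318 CPM in sh-ctrl and 41.7 ± 18.5 CPM in miR-125b (SD, n = 3 each). Prtn3 of the same list did not rise, at 69.4 ± 24.1 and 63.4 ± 35.6 CPM (SD, n = 3 each; edgeR adjusted p = 0.827). The list summed to 47.4 to 97.2 CPM in sh-ctrl and 80.4 to 150.2 CPM in miR-125b, which overlap. In sh-ctrl Prtn3 made up most of this sum. Every other gene of the list was higher in all 3 miR-125b libraries than in any sh-ctrl library. Of all 14004 genes, 44.9% did not overlap between these groups, in either direction. Only 2 genes of the list were called, and not all had enough counts to be tested. The part of all these markers in the receptor and enzyme values of these libraries was not tested.

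Divided by gene length, which allows levels of different genes to be compared, Adora2a exceeded Adora2b in every LUC, Arid3a, sh-ctrl and shArid3a library, with a ratio of Adora2b to Adora2a in CPM per kb between 0.0793 and 0.251. In the miR-125b libraries this ratio was 0.74, 1.88 and 1.33, above every other Gata1s library, so that Adora2b was the more abundant of the pair in 2 of the 3. In the WT libraries it was 1.37, 1.97 and 1.58. The ratio was not tested, since the miR-125b values helped to choose the genes.

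**Figure D3:**
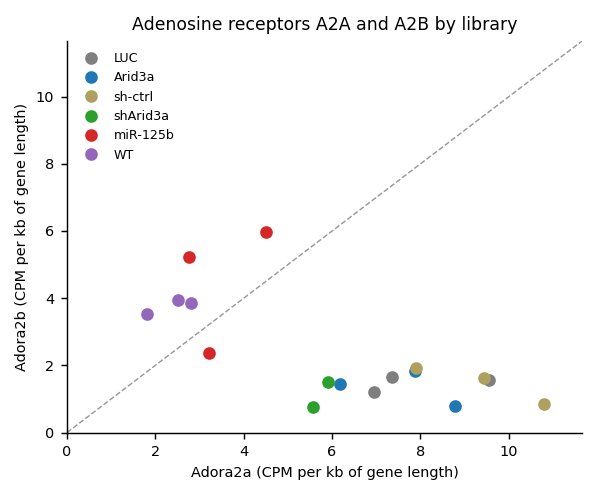
Adora2b against Adora2a in each of the 17 libraries, both in CPM per kb of gene length, coloured by group; the dashed line marks equal levels. The 11 libraries of LUC, Arid3a, sh-ctrl and shArid3a lie below the line with ratios of 0.0793 to 0.251, while the miR-125b and WT libraries have ratios of 0.74 to 1.97.

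In shArid3a, Adora2a stood at 14.1 and 14.98 CPM, between the sh-ctrl and the miR-125b libraries with no overlap with either. Its log2 fold change against sh-ctrl was -0.71 ± 0.25 (SE; edgeR adjusted p = 0.129), and that of miR-125b against shArid3a was also -0.71 ± 0.24 (SE; edgeR adjusted p = 0.202). Neither passed the test, although DESeq2 put the first past the threshold (adjusted p = 0.0426). These comparisons share the sh-ctrl and the miR-125b libraries with the choosing contrast.

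Adora2b in shArid3a was 1.41 and 2.74 CPM, overlapping sh-ctrl, and the log2 fold change was -0.38 ± 0.49 (SE) at an edgeR adjusted p of 0.657. Its direction turned without the first shArid3a library, to 0.031. All 3 miR-125b libraries exceeded both shArid3a libraries, with a log2 fold change of 2.01 ± 0.52 (SE) that did not pass the test (edgeR adjusted p = 0.0965). It passed in 4 of 14 alternatives, over which the adjusted p ran from 0.0019 to 0.515: with the replicate number as a block (1.79, adjusted p = 0.0219), under DESeq2 (adjusted p = 0.0019), with no filter on low counts (adjusted p = 0.00366), and without the first miR-125b library (2.31, adjusted p = 0.0361).

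In the 48 h experiment Adora2a was 24.2, 17.6 and 18.6 CPM in LUC and 22.2, 15.6 and 20.0 CPM in the libraries labelled Arid3a. Adora2b was 2.87, 2.21 and 3.03 CPM in LUC and 1.43, 2.68 and 3.38 CPM there. Both receptors overlapped between these groups, with log2 fold changes of -0.06 ± 0.18 and -0.12 ± 0.35 (SE; edgeR adjusted p = 0.864 and 0.875).

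P2rx1 encodes the ATP-gated channel of platelets and megakaryocytes (chr11:72999103-73015200, plus strand). It had the highest level per length of the 10 genes in each of the 6 groups, from 43.7 ± 3.1 CPM per kb (SD, n = 3) in WT to 63.1 ± 6.3 CPM per kb (SD, n = 3) in the libraries labelled Arid3a. Its level varied little: 151 to 158 CPM in LUC, 147 to 179 CPM in Arid3a, 134 to 180 CPM in sh-ctrl, 130 and 166 CPM in shArid3a, 120 to 146 CPM in miR-125b and 109 to 124 CPM in WT. No comparison called it, and its log2 fold changes lay between -0.19 and 0.10. For shArid3a against sh-ctrl, the value of -0.03 ± 0.17 (SE; edgeR adjusted p = 0.937) leaves either direction possible.

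P2rx4 encodes another ATP-gated channel, found in macrophages and endothelium as well as in blood cells (chr5:122707544-122729738, plus strand). It was 12.2, 10.6 and 14.3 CPM in sh-ctrl and 13.5, 7.14 and 7.05 CPM in miR-125b. The first miR-125b library lay within the sh-ctrl range and the other two below it, for a log2 fold change of -0.42 ± 0.28 (SE); without that first library it was -0.80. In shArid3a it was 15.1 and 14.5 CPM, slightly above every sh-ctrl library, and the log2 fold change was 0.26 ± 0.31 (SE) at an edgeR adjusted p of 0.612. Scaled by library totals alone, shArid3a at 14.9 and 13.3 CPM lay below the highest sh-ctrl library, at 16.3 CPM. The miR-125b libraries were all below shArid3a, by a log2 fold change of -0.68 ± 0.30 (SE) that did not pass the test (edgeR adjusted p = 0.338).

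In the 48 h experiment P2rx4 was 13.5, 12.9 and 18.04 CPM in LUC and 33.8, 13.6 and 15.7 CPM in the libraries labelled Arid3a. The log2 fold change, 0.51 ± 0.34 (SE) at an edgeR adjusted p of 0.441, rests on the first of these libraries, since it was -0.0031 without it. That library also had the highest summed mast cell and basophil markers (180 CPM against 2.47 and 46.8 CPM) and megakaryocyte markers (5197 CPM against 3216 and 3391 CPM) of its group; their part was not tested. The WT libraries had P2rx4 at 74.0, 73.9 and 71.6 CPM, more than any Gata1s library.

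P2ry1 encodes the Gq-coupled ADP receptor that starts platelet shape change (chr3:61002795-61008982, plus strand). In the 48 h experiment it was 59.4, 58.2 and 57.9 CPM in LUC and 29.2, 58.2 and 54.3 CPM in the libraries labelled Arid3a. The first Arid3a library lay far below the rest and the other two near the LUC values, and the log2 fold change of -0.31 ± 0.23 (SE) did not pass the test (edgeR adjusted p = 0.483). In sh-ctrl it was 28.4, 29.6 and 41.0 CPM and in shArid3a 18.5 and 23.3 CPM, lower without overlap, and the log2 fold change was -0.66 ± 0.25 (SE) at an edgeR adjusted p of 0.141. The miR-125b libraries, at 22.8, 34.3 and 36.2 CPM, overlapped sh-ctrl, with a log2 fold change of -0.09 ± 0.21 (SE). They also overlapped shArid3a, at 0.57 ± 0.25 (SE; edgeR adjusted p = 0.316). The library numbered 1 had the lowest P2ry1 level in 4 of the 5 Gata1s groups. P2ry1 shares 992 of its 4291 exonic bases with the antisense gene Gm37035, and whether the counting used strand is not given in the sources used here; Gm37035 itself had 4 to 23 counts per Gata1s library.

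P2ry12 encodes the Gi-coupled ADP receptor of platelets that antiplatelet drugs block (chr3:59216272-59262871, minus strand). It had no count in any of the 8 libraries of the 10-day experiment, which allows at most 0.0734 to 0.0938 CPM per library (3 counts, counting error only). The LUC and Arid3a libraries held 9 counts in all, and the WT libraries had 1.22, 3.05 and 2.03 CPM. So the gene was barely detected outside WT, and it was not tested.

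P2ry14 encodes the receptor for UDP-glucose (chr3:59113855-59153618, minus strand). It was 1.76, 1.42 and 1.58 CPM in LUC and 3.59, 2.12 and 2.54 CPM in the libraries labelled Arid3a, higher in 3 of 3 without overlap. The log2 fold change of 0.79 ± 0.29 (SE) had an unadjusted p of 0.0279 by edgeR and did not pass after adjustment (adjusted p = 0.177; 0.12 to 0.47 over the alternatives). In sh-ctrl it was 0.509, 0.733 and 1.075 CPM, and in miR-125b 2.68, 1.44 and 1.24 CPM, again without overlap, with a log2 fold change of 1.20 ± 0.50 (SE). Scaled by library totals alone, these groups overlapped, at 1.22 CPM in the highest sh-ctrl and 1.20 CPM in the lowest miR-125b library. The shArid3a libraries had 0.653 and 1.21 CPM, overlapping sh-ctrl (0.26 ± 0.56 SE, edgeR adjusted p = 0.792) and below every miR-125b library (0.94 ± 0.57 SE, edgeR adjusted p = 0.494). WT libraries had 15.7, 17.9 and 18.02 CPM. P2ry12 and P2ry14 lie within the span of Med12l on the other strand, sharing 9 and 0 exonic bases with it. Med12l was 70.1 to 77.8 CPM in LUC and 95.1 to 126 CPM in the libraries labelled Arid3a, the same direction as P2ry14, and 30.0 to 43.2 CPM in sh-ctrl and 11.8 to 21.3 CPM in miR-125b, the opposite direction.

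**Figure D4:**
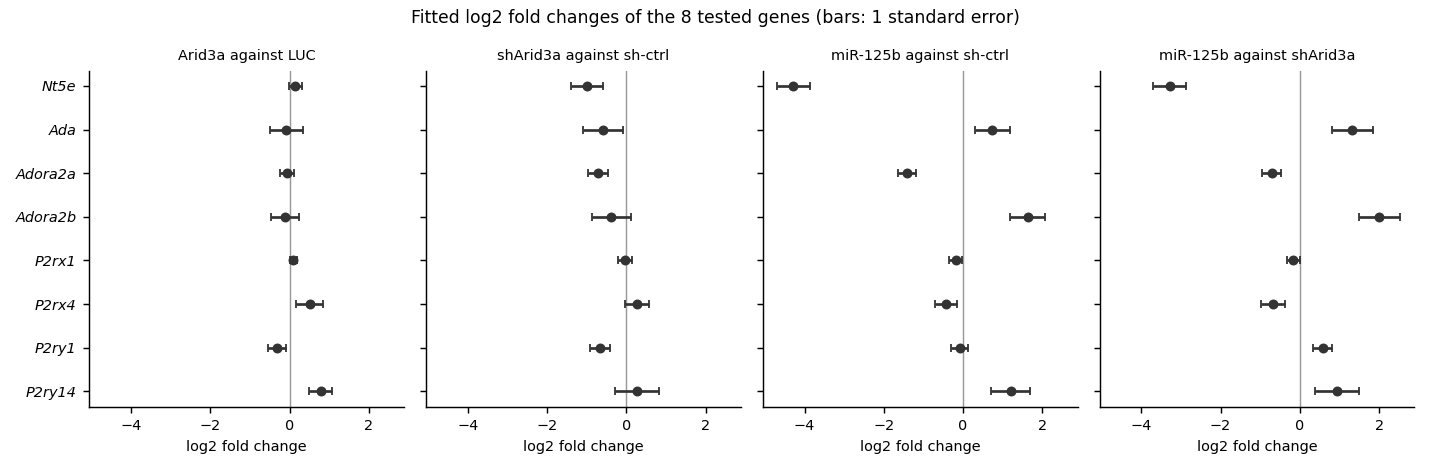
Fitted log2 fold changes (horizontal axis) of the 8 genes that passed the filter on low counts, in 4 comparisons; bars are 1 SE of the fit. Nt5e is at -4.28 in miR-125b against sh-ctrl and -3.29 against shArid3a, and near 0 (0.15) in Arid3a against LUC.

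Counted together, 8 of the 10 genes passed the filter on low counts in every comparison; Entpd1 and P2ry12 passed in none. Between Arid3a and LUC, 0 of the 8 were called at an adjusted p under 0.05 in edgeR, as were 0 of 13495 genes tested (0%), and DESeq2 called 0 of the 8. At an unadjusted p under 0.05, 1 of the 8 (P2ry14) passed, beside 21.4% of all genes. The groups did not overlap for 1 of the 8, beside 27.6% of all genes. Between shArid3a and sh-ctrl, 0 of the 8 were called, beside 0.0857% of 14004 genes, while DESeq2 called 1; 3 of the 8 (Nt5e, Adora2a and P2ry1, all lower) had an unadjusted p under 0.05, beside 25.8% of all genes in either direction. The groups did not overlap for 4 of the 8, beside 43.9% of all genes, a share close to that background.

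Between miR-125b and sh-ctrl, the contrast that chose them, 3 of the 8 were called (Adora2b higher, Nt5e and Adora2a lower), beside 24.4% of 14004 genes, and 4 did not overlap, beside 44.9%. Since Nt5e chose the genes here, nothing is read from these counts. Adora2b fell short of the threshold without the first sh-ctrl library (log2 fold change 1.35), the third sh-ctrl library (1.70), the second miR-125b library (1.51) or the third (1.38), and P2rx4 was past it without the first miR-125b library. Between miR-125b and shArid3a, 1 of the 8 (Nt5e) was called, beside 1.35%, 6 had an unadjusted p under 0.05, beside 14.5%, and 6 did not overlap, beside 29.8%; the miR-125b libraries are again those that chose the genes. The median log2 fold change of the 8 was 0.02, -0.48, -0.14 and 0.21 in these 4 comparisons, in the order given, beside medians over all genes of 0.01, -0.02, -0.03 and -0.01.

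Across the 14 Gata1s libraries, the 4 genes whose log2 CPM was most like that of Nt5e, among 9978 compared, were Idi1 (Pearson r = 0.972), Rabl6 (0.966), Arid3b (0.964) and Fech (0.964). Idi1 encodes isopentenyl diphosphate isomerase, Arid3b is the close relative of Arid3a, and Fech encodes ferrochelatase, the last enzyme of haem synthesis. All 4 had their lowest mean in miR-125b, which follows largely from picking them by likeness to Nt5e. Arid3b averaged 26.0 CPM in sh-ctrl, 16.5 CPM in shArid3a and 6.84 CPM in miR-125b, and Idi1 311, 203 and 77.7 CPM. Rabl6 averaged 111, 88.1 and 60.9 CPM in the same order, and Fech 87.7, 84.9 and 53.6 CPM. The libraries share their groups, and the likeness comes from the hairpin and miR-125b table: within it the 4 r values were 0.943 to 0.956, and within the 6 LUC and Arid3a libraries they were 0.447 for Idi1, -0.22 for Rabl6, 0.395 for Arid3b and 0.58 for Fech. These are descriptions, without a test.

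The other genes of the pathway were counted from lists by role, to be read against the 24.4% of all genes called between miR-125b and sh-ctrl; the shares called in these lists are given as descriptions and none was tested against that background. Of 14 other genes of the ectonucleotidase families and related enzymes, 6 were tested between miR-125b and sh-ctrl, and 2 fell. Entpd3, a CD39 relative, fell from 0.431 ± 0.201 to 0.00908 ± 0.0157 CPM (SD, n = 3 each, edgeR adjusted p = 0.011). Enpp1, which makes pyrophosphate from ATP, fell from 1.39 ± 0.67 to 0.121 ± 0.010 CPM (SD, n = 3 each, edgeR adjusted p = 0.00681). Both were low even in the controls, and Entpd3 had 1 count in the 3 miR-125b libraries together. Their median log2 fold change was -0.26 over the 6 tested.

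Of 15 genes of adenosine uptake and intracellular handling, 12 were tested there and 1 rose: Adk, adenosine kinase, which returns adenosine to AMP inside the cell, from 34.5 ± 3.3 to 57.9 ± 7.8 CPM (SD, n = 3 each; edgeR log2 fold change 0.74 ± 0.14 SE, adjusted p = 0.00888). Adk was 53.9 ± 2.8 CPM in shArid3a (SD, n = 2), above sh-ctrl without overlap, but not past the threshold there (edgeR adjusted p = 0.0989). Of 17 G protein, adenylyl cyclase and phospholipase genes downstream of the receptors, 16 were tested and 2 fell with miR-125b: Adcy9, an adenylyl cyclase, from 5.54 ± 1.48 to 0.718 ± 0.889 CPM (SD, n = 3 each; edgeR adjusted p = 0.025), and Plcb2, a phospholipase C, from 131 ± 46 to 65.0 ± 19.2 CPM (SD, n = 3 each; edgeR adjusted p = 0.0425), the latter with overlapping libraries.

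Between miR-125b and sh-ctrl, edgeR called none of the 4 tested of 13 other genes listed with the purine receptor families. Nor did it call any of the 6 tested of 7 genes of nucleotide release. At an unadjusted p under 0.05, 1 receptor was lower and 2 release genes were higher, beside 39.8% of all genes in either direction. In the other 3 comparisons 0 genes of these 5 lists were called by edgeR. At an unadjusted p under 0.05 the G protein and cyclase list had 6 lower and 0 higher between shArid3a and sh-ctrl, and 3 higher and 0 lower between Arid3a and LUC, of 16 tested each, beside 25.8% and 21.4% of all genes in either direction. These are descriptions of the lists.

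Set beside the Gata1s libraries, all 3 WT libraries were above all 14 for 6 of the 10 genes (Nt5e, Entpd1, Ada, P2rx4, P2ry12 and P2ry14), beside 23.6% of 15338 genes, and below all 14 for 0 of the 10, beside 10.4%. The 6 differ in how far apart they were: P2rx4 had 71.6 to 74.0 CPM in WT against 7.05 to 33.8 CPM, and Nt5e only 34.9 to 40.8 against 0.463 to 34.7 CPM. Scaled by library totals alone, the Nt5e ranges overlapped. Adora2a in WT, at 4.55 to 7.10 CPM, touched the lowest miR-125b values and lay below all other Gata1s libraries, and Adora2b, at 6.54 to 7.29 CPM, lay within the miR-125b range and above all others. Of the 13 other genes listed with the purine receptor families, 9 had enough counts to be compared. The WT libraries were above all 14 Gata1s libraries for 7 of them and below for 0, beside the same shares over all genes. Examples are P2ry13 at 6.20 ± 0.56 CPM and P2rx7 at 27.4 ± 4.2 CPM in WT (SD, n = 3 each), with Gata1s group means of at most 0.0273 and 1.76 CPM. Genes were compared here if they passed the filter on low counts in any of the count tables. Entpd1, P2ry12, P2rx3, P2ry6, P2ry10 and P2ry13 passed it only in WT. For such genes a WT level above the rest follows largely from how they entered, so nothing is read from these counts. No test was made across the tables. The neutrophil, monocyte and macrophage markers given above were also higher in WT. So were summed markers of mast cells and basophils (1420 to 1651 CPM), B and T lymphoid cells (27.2 to 30.6 CPM) and endothelium (15.1 to 19.85 CPM). In the Gata1s libraries these reached at most 387, 2.86 and 9.16 CPM. Megakaryocyte and platelet markers were lower in WT, and erythroid, stromal and hepatocyte sums overlapped. The part of these markers was not tested.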

How the data were processed

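RNA sequencing of total RNA gave 3 deposited tables of raw gene counts. The authors made these counts with fastp, HISAT2 2.0.5 and featureCounts on mm10, per the submitters' processing notes; the annotation release, strand setting and role of each tool are not given in the sources used here. The gene lengths used for CPM per kb are those deposited in the WT table.

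Groups were taken from the labels. The 10 genes, the pathway and marker lists and the tests were chosen with earlier results of these data known. Genes were joined by Ensembl ID, with 1 listed gene, Pnp, unmatched by name. CPM used TMM scaling within each table. Differences were tested with edgeR 4.0.16 (R 4.3.3) quasi-likelihood fits after filterByExpr, with Benjamini-Hochberg adjustment over all genes tested and a threshold of 0.05; the 3 groups of the hairpin and miR-125b table were fitted together. DESeq2 1.42.0 was an alternative. The script was tested on simulated data. Likeness to Nt5e used log2(CPM + 0.5) of genes with a mean of at least 1. Named genes were the 10 genes, the checks of labels and overlapping genes, at most 3 called genes of each pathway list and the 4 genes most like Nt5e. P2ry13, P2rx7, P2rx3, P2ry6, P2ry10, Csf1r, Itga2b, Mpo and Prtn3 were named after their values were seen. Limits given for a count of 0 cover counting error only; an SE is that of the edgeR fit and includes the spread between libraries.

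Same-numbered libraries were checked for pairing. Deviations from the group means correlated at 0.466, 0.164 and 0.392 between miR-125b and sh-ctrl, which meets the rule for pairing (every pair over 0.1); the numbering comes from the titles, which name no shared source. There the replicate block left 3 of the 10 genes called and 3687 genes in all, against 3414 without it.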

Additional observations from a re-analysis of the deposited data

How the results depend on the processing

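Of the fold changes of single genes under alternatives, 430 kept their direction and their side of the threshold, 4 dropped below it, 6 rose past it and 16 changed sign. The main values that changed sign reached 0.51 in size, for P2rx4 in Arid3a against LUC. With the replicate block, P2rx1 in shArid3a against sh-ctrl was 0.0329. Where leaving out 1 library each turned a sign, the log2 fold changes ranged as follows. In Arid3a against LUC, Nt5e ran from -0.0706 to 0.262, Ada from -0.644 to 0.209, Adora2a from -0.169 to 0.0897, Adora2b from -0.397 to 0.173 and P2rx4 from -0.00308 to 0.739. In shArid3a against sh-ctrl, Adora2b ran from -0.923 to 0.0307, P2rx1 from -0.21 to 0.143 and P2ry14 from -0.239 to 0.647. P2ry1 ran from -0.207 to 0.0939 in miR-125b against sh-ctrl, and P2rx1 from -0.33 to 0.0236 in miR-125b against shArid3a. The cause was not tested. Of the 10 genes, 1 was called in shArid3a against sh-ctrl under DESeq2, and 2 in miR-125b against shArid3a under DESeq2, with no filter, with the replicate block and without the first miR-125b library, against 1. Otherwise the replicate block changed no call of the 10 genes. The numbers did not pair the libraries in Arid3a against LUC (correlations 0.134, 0.373 and -0.0621), and the 2 pairs of each shArid3a comparison are too few to tell.

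Counts over all genes moved more. Arid3a against LUC had 0 genes called by edgeR, 2885 at an unadjusted p under 0.05, 1359 by DESeq2, 71 with no filter and 3198 without the first Arid3a library. shArid3a against sh-ctrl had 12, against 1600 by DESeq2, 1237 with no filter, 20 with library totals, 19 with at least 10 counts in every library or a robust fit, 0 without ribosomal RNA-like genes and 2 to 11 without 1 library. miR-125b against sh-ctrl had 3414, and 734 to 2872 without 1 library. miR-125b against shArid3a had 189, against 737 by DESeq2, 715 with no filter and 12 to 329 without 1 library. Scaling by library totals moved the median log2 fold change of all genes to -0.217 and -0.218 in the 2 comparisons with sh-ctrl, and the share of higher among called genes with miR-125b from 49.8% to 26.6%; fold changes in the text are relative to TMM scaling. Of 57 group levels, 54 moved by under 1 SD with library totals. Levels under about 1 CPM rest on few counts.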
